A study of Homo sapiens with 6 samples.

Results

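The genes described here encode the proteins of the mitochondrial ribosome, and their mRNAs were measured in A549 cells with and without knockdown of DDX17. They were taken as all protein-coding genes of the count table whose symbol begins with MRPL (large subunit) or MRPS (small subunit) followed by a number and whose counts passed the expression filter of edgeR. This gave 78 genes of the 15615 tested, of 29476 listed, with 48 genes in the large subunit and 30 in the small subunit. All 78 matching protein-coding rows passed the filter, so none was lost to it, and 8 further rows with such a symbol were not protein coding. Of the 78 rows, 2 carried the symbol MRPS17, and the longer of these is called the MRPS17 readthrough below because GENCODE 44 annotates it as running through from the neighbouring gene ZNF713.

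A549 is an established human lung adenocarcinoma line. All 6 libraries came from cells transfected with siRNA using Lipofectamine, 3 with a nontargeting siRNA (control group, siCtrl, labelled control plasmid) and 3 with an siRNA against DDX17 (DDX17 knockdown group, siDDX17, labelled DDX17 knockdown). The design therefore held 1 cell line and 1 siRNA against DDX17, and effects of the siRNA on other targets cannot be told apart from those on DDX17. The time from transfection to harvest of these libraries is not given in the sources used here. Polyadenylated RNA was sequenced, and total counts per library ran from 30658136 to 39182371.

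DDX17 encodes a DEAD-box RNA helicase. Its level in CPM, read counts per library size after TMM scaling, was 177, 184 and 206 in the siCtrl libraries and 32.1, 30.8 and 30.4 in the siDDX17 libraries. DDX17 mRNA was thus 83.5% lower (log2 fold change -2.60, SE 0.0685, adjusted p = 5.89e-11, edgeR quasi-likelihood test with Benjamini-Hochberg adjustment over all tested genes). Its paralog DDX5 had a log2 fold change of -0.11 (SE 0.0594, adjusted p = 0.142). Keratins KRT8, KRT18 and KRT19 and AKR1B10 were detected in every library, as were EPCAM at 0.738 to 2.28 CPM and CDH1 at 14.7 to 17.8 CPM, while PTPRC, PECAM1 and DCN, which mark leukocytes, endothelium and fibroblasts, did not pass the expression filter. The fibroblast gene COL1A1 did, at 2.46 to 3.55 CPM.

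The mitochondrial ribosome translates the mRNAs of the mitochondrial genome, all of which encode subunits of the oxidative phosphorylation complexes. Its 2 rRNAs come from mitochondrial DNA, whereas every one of its proteins is encoded in the nucleus, made in the cytosol and imported. Some of these proteins descend from bacterial ribosomal proteins and others exist only in mitochondria. Of the rows measured here, 47 are for a protein with a bacterial homolog and 31 for a mitochondria-specific protein. The 47 count MRPS17 in both of its rows, and the 31 include MRPS36, described below as a component of another complex.

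One control library stood apart, in these genes and less widely in other well expressed genes. The level of a member in siCtrl 1, as log2 CPM, lay below the mean of siCtrl 2 and siCtrl 3 for 71 of the 78 genes (91%), compared with 67.3% of the 4125 tested genes with a mean FPKM of at least 10 and 49.8% of all tested genes. The median of this deviation was -0.17 over the 78 genes, -0.18 in the large subunit and -0.16 in the small subunit, -0.07 over the genes with a mean FPKM of at least 10, and 0.00 over all tested genes. Library siCtrl 1 was also the lowest control for all 7 genes with other symbols described below, which are mitochondrial ribosomal proteins and the insertase OXA1L. Summed over all 78 genes, the CPM was 6098 in siCtrl 1, 6908 in siCtrl 2 and 6748 in siCtrl 3, and 6420, 6595 and 6432 in the siDDX17 libraries. The sums of the knockdown libraries thus lay between siCtrl 1 and the other controls. Across all tested genes, a chi-square of the counts per gene was 20.3 and 25.6 between siCtrl 1 and the other controls, 5.83 between siCtrl 2 and siCtrl 3, and 3.62 to 5.49 among the siDDX17 libraries. The main counts of called genes are therefore given with and without siCtrl 1.

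**Figure D1:**
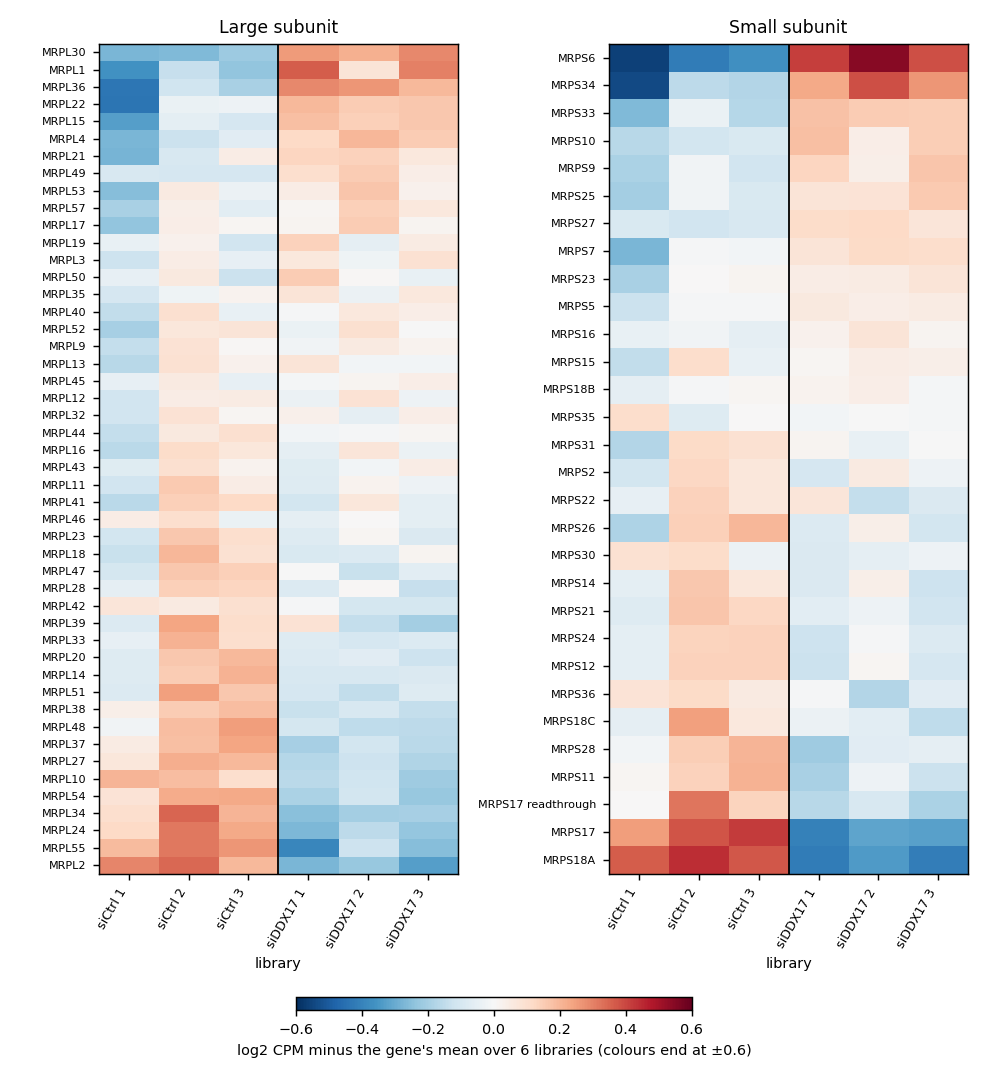
Level of each of the 78 genes in each of the 6 libraries, as log2 CPM (TMM scaled) minus the mean of that gene over the 6 libraries, for the large (left) and small (right) subunit, with genes ordered by log2 fold change. The siCtrl 1 column is bluer than siCtrl 2 and 3 down most of both panels, where 71 of 78 genes lay lower, while MRPS6 at the top right and MRPS18A at the bottom right separate the groups in all libraries.

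The 78 mRNAs shifted little and in both directions. In siDDX17 against siCtrl, 16 of 78 were called higher (20.5%, beside 24.5% of all tested genes) and 21 were called lower (26.9%, beside 24.3% of all tested genes), called meaning an adjusted p under 0.05 with no limit on the fold. A further 41 were not called. Both shares lay near the background, and the median log2 fold change was -0.03, compared with 0.01 over all tested genes. Among tested genes with a mean FPKM of at least 10, 21.9% were higher and 35.6% lower, with a median of -0.07. In bulk RNA, a change in every cell and a larger change in some of the cells cannot be told apart.

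In the large subunit 8 of 48 genes were called higher (16.7%) and 15 lower (31.2%), and the median log2 fold change was -0.02. In the small subunit 8 of 30 were called higher (26.7%) and 6 lower (20%), with a median of -0.04. Of all tested genes 24.5% were higher and 24.3% lower, and of those with a mean FPKM of at least 10, 21.9% and 35.6%. Whether the subunits differed in these shares was not tested. Among the genes with a bacterial homolog 11 of 47 were higher (23.4%) and 13 lower (27.7%, median -0.05). Among the mitochondria-specific ones 5 of 31 were higher (16.1%) and 8 lower (25.8%, median -0.02). Without siCtrl 1 the first class had 9 higher (19.1%) and 24 lower (51.1%, median -0.13). The second then had 5 higher (16.1%) and 12 lower (38.7%, median -0.08). In that fit 26.4% of all genes tested were higher and 27% lower, and of those with a mean FPKM of at least 10, 23.5% and 45.3%. Both evolutionary classes therefore held genes that went up and genes that went down.

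These counts depended on siCtrl 1 and on the scaling. Without siCtrl 1, 14 of 78 genes were called higher and 36 lower, which is 17.9% and 46.2%, and the median log2 fold change was -0.10. Over all genes tested in that fit 26.4% were higher and 27% lower, but of the genes with a mean FPKM of at least 10, 23.5% were higher and 45.3% lower, and their median was also -0.10. The shift without siCtrl 1 thus left the 78 genes close to other genes of that level. The lower calls then numbered 22 of 48 in the large subunit (45.8%) and 14 of 30 in the small subunit (46.7%). With scaling by library size alone, 32 of 78 were called higher (41%, beside 33.5% of all tested genes) and 10 lower (12.8%, beside 16%), the median was 0.10, and 15 genes changed sign (19.2%, beside 12%). That scaling moved the median of all tested genes by 0.12 on the log2 scale and the share of all calls that were higher from 50.1% to 67.7%. The 15 alternative fits set no limit on the fold. Across them and the settings used throughout, 12 genes were always called higher (15.4%, beside 17% of all tested genes). Another 10 were always called lower (12.8%, beside 13.6%), and both shares were near the background. The first were MRPL1, MRPL4, MRPL15, MRPL22, MRPL30, MRPL36, MRPL49, MRPS6, MRPS10, MRPS27, MRPS33 and MRPS34, and the second MRPL2, MRPL10, MRPL24, MRPL27, MRPL34, MRPL37, MRPL54, MRPL55, MRPS17 and MRPS18A.

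**Figure D2:**
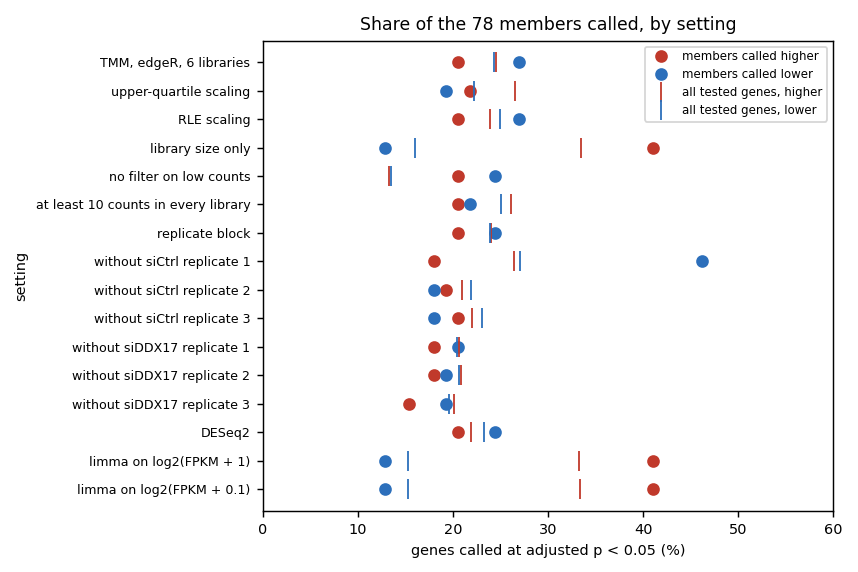
Percent of the 78 genes called higher (red points) and lower (blue points) at an adjusted p under 0.05 under each of 16 ways of processing, beside the percent of all tested genes called in the same direction (ticks of the same colour). The blue point leaves the rest without siCtrl replicate 1, where 36 of 78 genes were called lower, and the red point does so with library size alone and with limma on FPKM, where 32 were called higher.

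Fold changes within the group were also narrower than over all tested genes, and less markedly so beside well expressed genes. The log2 fold changes ran from -0.78 to 0.90 with a SD of 0.278, compared with 0.562 over all tested genes, and 64 of the 78 genes (82.1%) had a log2 fold change between -0.32 and 0.32, beside 53.5% of all tested genes and 66.6% of the 4125 tested genes with a mean FPKM of at least 10. The median SE of a log2 fold change was 0.0663 in the group, 0.0639 over the genes with a mean FPKM of at least 10 and 0.0987 over all tested genes. Requiring a change of over 1.5-fold as well left 1 gene higher (1.28%, beside 11.9% of all tested genes) and 2 lower (2.56%, beside 8.55% of all tested genes), all of them named after the small subunit. Among tested genes with a mean FPKM of at least 10 these shares were 5.6% and 7.32%. The groups of libraries did not overlap for 19 genes that were higher in every siDDX17 library (24.4%, beside 28.8% of all tested genes) and for 19 that were lower (24.4%, beside 27.7% of all tested genes). Of the genes with a mean FPKM of at least 10, 25.3% were higher and 38.6% lower without overlap.

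**Figure D3:**
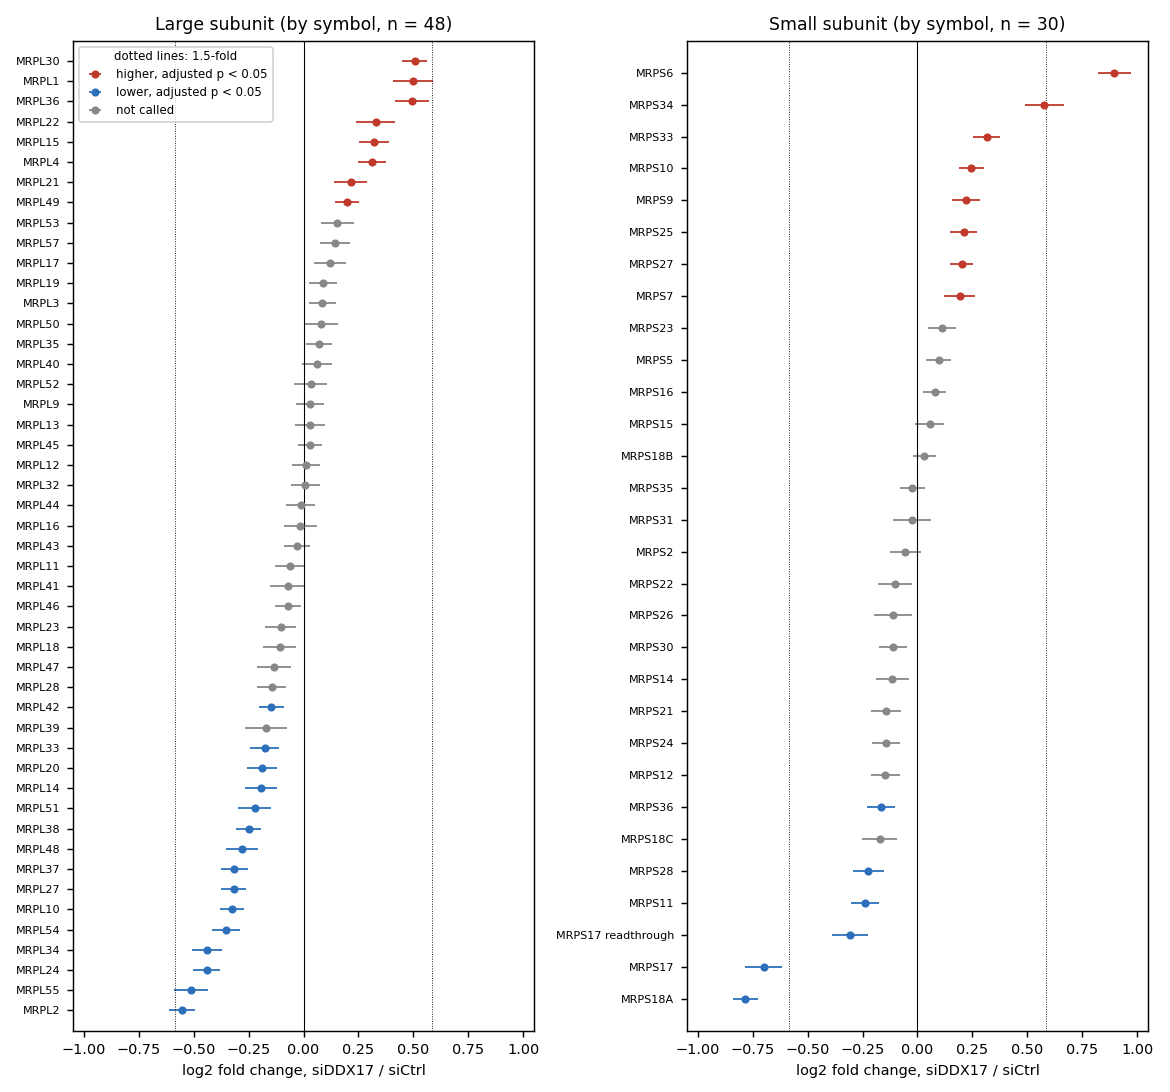
Log2 fold change (siDDX17 against siCtrl, points) with its SE (bars) for each gene of the large subunit (left, n = 48) and the small subunit (right, n = 30), ordered by size, with genes called at an adjusted p under 0.05 in red (higher) or blue (lower) and 1.5-fold marked by dotted lines. Most points lie within the dotted lines, and MRPS6 on the right and MRPS17 and MRPS18A on the left lie clearly outside them, with MRPS34 just inside.

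The largest rise was that of MRPS6 (ENSG00000243927.5, chr21:34073224-34143034, plus strand, GRCh38), which encodes bS6m, a homolog of bacterial S6 in the small subunit. Its FPKM, a level scaled for gene length and library size, was 15.5, 16.3 and 17.3 in siCtrl and 32.6, 35.2 and 32.3 in siDDX17. Every knockdown library was far above the highest control library, and the fitted level was 1.86-fold higher (log2 fold change 0.90, SE 0.0765, adjusted p = 6.93e-07). GENCODE 44 places 168 exonic bases of SLC5A3, a myo-inositol transporter, on the same strand within exons of MRPS6. SLC5A3 was at 5.14 to 6.91 CPM in the siCtrl libraries and at 4.03 to 4.65 CPM in the siDDX17 libraries, and it fell (log2 fold change -0.45, SE 0.133, adjusted p = 0.0127). These overlapping genes therefore had opposite directions in the same libraries, and how the authors assigned reads of shared bases is not given in the sources used here.

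MRPS34 (chr16:1771890-1773150, minus strand), a mitochondria-specific protein of the small subunit, came next. Its CPM was 86.2, 113 and 111 in siCtrl and 147, 164 and 151 in siDDX17. All siDDX17 libraries were above all siCtrl libraries, with siCtrl 1 lowest, and the log2 fold change was 0.58 (SE 0.0891, adjusted p = 0.000137). MRPS33 (mS33) also rose, by 0.31 on the log2 scale (SE 0.0628, adjusted p = 0.00101). MRPS10, homolog of the bacterial protein S10, was at 58.3, 60.6 and 61.2 CPM in siCtrl and at 74.1, 67.1 and 72.3 CPM in siDDX17, a log2 fold change of 0.25 (SE 0.0584, adjusted p = 0.00343). MRPS9 and MRPS25 had log2 fold changes of 0.22 (adjusted p = 0.0115) and 0.21 (adjusted p = 0.0126). The exons of MRPS25 share 762 bases with NR2C2 on the other strand, and NR2C2 fell by 0.74 on the log2 scale (SE 0.103, adjusted p = 5.9e-05).

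In the large subunit MRPL30, MRPL1 and MRPL36 rose most, each by about the same amount. MRPL30 (uL30m, chr2:99181152-99199561, plus strand) was at 39.5, 39.7 and 41.1 CPM in siCtrl and at 57.0, 55.5 and 58.4 CPM in siDDX17 (log2 fold change 0.51, SE 0.0561, adjusted p = 7.69e-06). Replicates of MRPL30 lay close together in both groups. The exons of MRPL30 share 564 bases with C2orf15 on the same strand, which also rose (log2 fold change 0.34, SE 0.0754, adjusted p = 0.00201). MRPL1 (uL1m), whose bacterial counterpart forms the stalk at the exit side for tRNA, had a log2 fold change of 0.50 (SE 0.0905, adjusted p = 0.000507). MRPL36 (bL36m), among the smallest ribosomal proteins, was at 34.6, 42.9 and 40.9 CPM in siCtrl and at 57.1, 56.1 and 53.5 CPM in siDDX17 (log2 fold change 0.49, SE 0.076, adjusted p = 0.000132). MRPL22 and MRPL15 rose less, by 0.33 (SE 0.0899, adjusted p = 0.00837) and 0.32 (SE 0.069, adjusted p = 0.00175) on the log2 scale. Both were lowest in siCtrl 1, at 42.3 CPM for MRPL22 beside 55.9 and 56.1 in the other controls, and without siCtrl 1 the log2 fold change of MRPL22 was 0.19, still called.

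The largest fall was that of MRPS18A (ENSG00000096080.11, chr6:43671202-43687791, minus strand). Its FPKM was 54.8, 55.4 and 54.2 in siCtrl and 34.1, 35.7 and 34.6 in siDDX17. Control and knockdown libraries were widely separated with little spread inside each, and the fitted level fell by 41.9% (log2 fold change -0.78, SE 0.0575, adjusted p = 1.91e-07). Despite its symbol, its protein sits in the large subunit in structures of the human mitochondrial ribosome, where it is called mL66. The other paralogs of the S18 family sit in the small subunit, MRPS18B as mS40 and MRPS18C as bS18m. MRPS18B had a log2 fold change of 0.03 (approximate 95% interval -0.07 to 0.14, adjusted p = 0.643) and MRPS18C one of -0.17 (approximate 95% interval -0.33 to -0.02, unadjusted p = 0.0509, adjusted p = 0.0923), neither called. Without siCtrl 1, MRPS18C was called lower, with a log2 fold change of -0.25. The interval of MRPS18A, -0.90 to -0.67, lay apart from both. MRPS18A shares 705 exonic bases with RSPH9 on the other strand, which was at 0.576 to 1.04 CPM, and MRPS18C shares 1296 with FAM175A, also on the other strand, which rose (log2 fold change 1.19, SE 0.112, adjusted p = 1.85e-06).

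MRPS17, homolog of bacterial S17, was represented by both rows of that symbol. The row of the gene itself (ENSG00000239789.5, chr7:55951877-55956500, plus strand) was at 14.0, 15.3 and 15.8 CPM in siCtrl and at 8.90, 9.46 and 9.40 CPM in siDDX17, a log2 fold change of -0.70 (SE 0.0844, adjusted p = 1.64e-05). The readthrough row (ENSG00000249773.3, chr7:55887277-55955239) was at 31.1, 38.8 and 34.1 CPM in siCtrl and at 27.6, 29.1 and 27.2 CPM in siDDX17, a log2 fold change of -0.31 (SE 0.0808, adjusted p = 0.00655). Both rows were lower in every siDDX17 library. They share 471 exonic bases, so their counts are not independent and the split of reads between them is uncertain. Other small subunit genes that fell did so by less, MRPS11 (uS11m) by 0.24, MRPS28 (bS1m) by 0.22 and MRPS36 by 0.17 on the log2 scale (adjusted p = 0.00845, 0.0174 and 0.042). These calls were kept in 11, 9 and 3 of the 15 alternatives, and with library size alone the log2 fold changes were -0.12, -0.10 and -0.04 and none was called. MRPS36 is now known as a component of the 2-oxoglutarate dehydrogenase complex rather than of the ribosome.

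In the large subunit the falls were led by MRPL2 (chr6:43054029-43059438, minus strand), whose product uL2m lies near the catalytic centre of the ribosome. MRPL2 was at 67.1, 69.5 and 62.8 CPM in siCtrl and at 45.3, 46.9 and 43.6 CPM in siDDX17 (log2 fold change -0.55, SE 0.0604, adjusted p = 6.66e-06). The groups did not overlap, and siCtrl 1 was not the lowest control here. MRPL55 (bL31m), MRPL24 (uL24m) and MRPL34 (bL34m) had log2 fold changes of -0.51, -0.44 and -0.44, with adjusted p-values of 0.000114, 6.92e-05 and 0.000124. MRPL24 is among the most abundant mRNAs of the group, at 197, 216 and 209 FPKM in siCtrl and at 161, 172 and 168 FPKM in siDDX17. MRPL54, a mitochondria-specific protein (mL54), fell by 0.35 on the log2 scale (SE 0.0644, adjusted p = 0.000517).

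Genes whose products work together in the ribosome were not all called in 1 direction. At the stalk that recruits translation factors, MRPL10 fell (log2 fold change -0.33, SE 0.0562, adjusted p = 0.000339), while MRPL11 and MRPL12 had log2 fold changes of -0.06 (95% interval -0.20 to 0.07) and 0.01 (95% interval -0.11 to 0.14) and were not called. MRPL10 anchors copies of MRPL12, and the level of MRPL12 was 259, 289 and 290 CPM in siCtrl and 273, 298 and 275 CPM in siDDX17, so the groups overlapped. In FPKM, which carries no TMM scaling, it was 235, 252 and 259 in siCtrl and 266, 286 and 270 in siDDX17. MRPL12 was called higher in 3 of the 15 alternatives, library size alone among them (log2 fold change 0.14, adjusted p = 0.0495). Around the exit of the peptide tunnel, MRPL22 rose and MRPL24 fell, while MRPL23 (log2 fold change -0.10, adjusted p = 0.242), MRPL44 (-0.01, adjusted p = 0.889) and MRPL45 (0.03, adjusted p = 0.69), the last of which attaches the ribosome to the inner membrane, were not called. MRPS12, the protein of the decoding site, had a log2 fold change of -0.15 (95% interval -0.28 to -0.02, adjusted p = 0.0829). MRPS30, another protein of the large subunit despite its symbol (mL65), had one of -0.11 (adjusted p = 0.163). Without siCtrl 1, MRPL11 (-0.14), MRPL23 (-0.19) and MRPS12 (-0.22) were called lower, and MRPL12, MRPL44, MRPL45 and MRPS30 were again not called. Counting MRPS18A and MRPS30 with the large subunit and leaving out MRPS36 gave 8 higher (16%) and 16 lower (32%) of 50 in the large subunit. The small subunit then had 8 higher (29.6%) and 4 lower (14.8%) of 27, beside 24.5% and 24.3% of all tested genes. Without siCtrl 1 these counts were 7 higher (14%) and 23 lower (46%) in the large subunit and 7 higher (25.9%) and 12 lower (44.4%) in the small subunit. In that fit 26.4% of all genes tested were higher and 27% lower, and of those with a mean FPKM of at least 10, 23.5% and 45.3%.

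Levels within the group differed far more between genes than between conditions. In FPKM averaged over the 6 libraries, genes of the large subunit ran from 3.2 to 261 with a median of 44.3, and those of the small subunit from 6.24 to 208 with a median of 37.1, compared with a median of 2.96 over all tested genes. The highest levels in the large subunit were those of MRPL12 (261), MRPL33 (244) and MRPL24 (187), and in the small subunit those of MRPS24 (208), MRPS34 (119) and MRPS15 (107). At the low end were MRPL42 (3.2), MRPL50 (8.04) and MRPL48 (12.7), and MRPS17 (6.24), MRPS25 (11.4) and MRPS31 (12.1). FPKM depends on the gene length the authors used, which is not given in the sources used here. Mean FPKM in siCtrl spanned 77.3-fold, from MRPL42 at 3.22 to MRPL12 at 249. Their mean CPM in siCtrl, which is not scaled for length, was 56.2 and 279. The canonical mRNAs of these genes have 15557 and 1009 bases in GENCODE 44. How much of the span comes from the lengths was not tested. MRPS17, at the low end, shares exons with its readthrough row, so its level is also uncertain.

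The order of levels was nearly the same in both groups of libraries. The log2 of mean FPKM in siCtrl and in siDDX17 had Pearson's r = 0.973 across the 78 genes, which share the same libraries and gene lengths and are not independent replicates, and the SD of log2 mean FPKM across genes was 1.2 in each group. MRPL33 and MRPL12 were the top genes in each group and in siCtrl, at 248 ± 16.5 and 249 ± 12 FPKM (SD, n = 3), they did not differ beyond their spread. After knockdown MRPL12 stood at 274 ± 10.5 and MRPL33 at 240 ± 4.71 FPKM (SD, n = 3). FPKM carries no TMM scaling, and the mean CPM of MRPL12 was 279 in siCtrl and 282 in siDDX17. The ratio of the median FPKM of the large subunit to that of the small subunit was 1.27, 1.42 and 1.41 in the siCtrl libraries and 1.29, 1.24 and 1.28 in the siDDX17 libraries, so siCtrl 1 lay among the knockdown libraries.

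**Figure D4:**
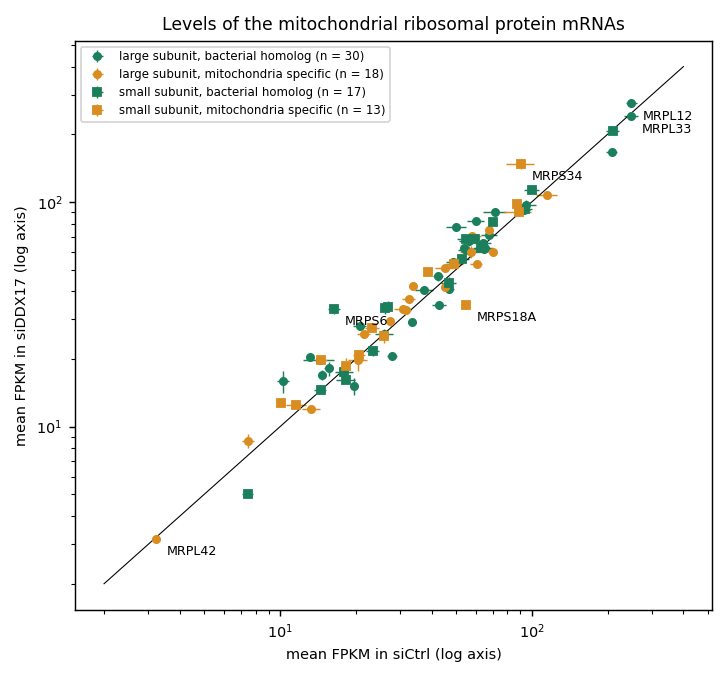
Mean FPKM of each gene in siDDX17 against that in siCtrl, both on log axes, with the SD over 3 libraries as bars, circles for the large and squares for the small subunit, and colour for proteins with a bacterial homolog or found only in mitochondria. Points follow the diagonal of equal FPKM over the whole range from MRPL42 (3.2) to MRPL12 (261), with MRPS6 above it and MRPS18A below it.

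The start regions of these genes shared sequence features that the choice of members did not use. A promoter window of 300 bases, 250 before and 50 after the start in RefSeq (GRCh38.p14), was matched to 68 of the 78 genes. Motifs were searched on both strands as exact letters. They were the ETS core CCGGAAG, read by ETS factors such as GABPA, the YY1 motif AAGATGGCG, a core of the NRF1 motif, GCATGCGC, and CCAAT, the box read by NF-Y. NRF1 and GABPA are known as regulators of nuclear genes for mitochondrial proteins. The YY1 motif can share its first letters AAG with the end of the ETS core and its last letters GCG with the NRF1 core read on the other strand. A match is a description of the letters and not a bound site.

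ETS cores were present in 28 of 68 member promoters (41.2%), compared with 18.6% of 10296 promoters of tested genes and 10.7% of all 27305 promoters. YY1 motifs were present in 13 (19.1%), compared with 3.89% and 1.85%. Both subunits had similar shares, with ETS cores in 39% of 41 large and 44.4% of 27 small subunit promoters, and YY1 motifs in 19.5% and 18.5%. NRF1 cores were found in 6 of 68 (8.82%, compared with 5.41% and 3.27%) and CCAAT boxes in 20 (29.4%, compared with 36.4% and 35.7%). The ETS and YY1 motifs were thus more frequent here than among tested genes in general, whereas CCAAT was not. Promoters of well expressed genes alone were not compared. By direction of change, ETS cores stood in 4 of 14 promoters of genes called higher, 8 of 16 of genes called lower and 16 of 38 of genes not called, and YY1 motifs in 3 of 14, 3 of 16 and 7 of 38. Whether these shares differ was not tested.

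**Figure D5:**
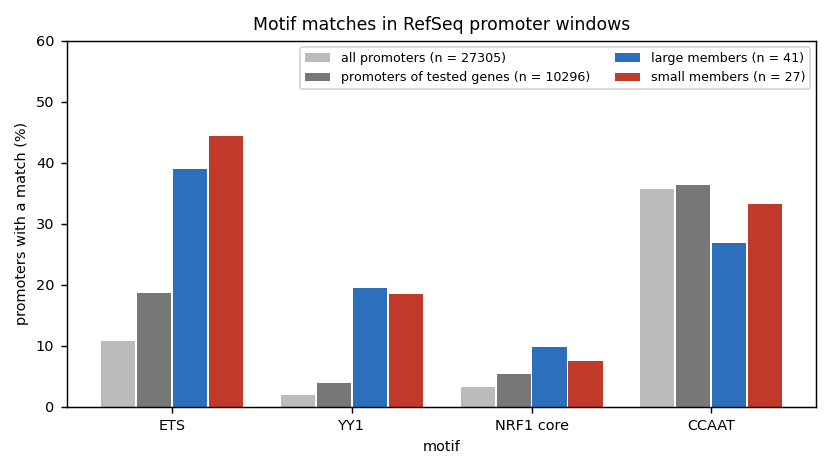
Percent of RefSeq promoter windows of 300 bases with at least 1 match to each motif, for all promoters (light grey), promoters of tested genes (dark grey), and promoters of the large (blue) and small (red) subunit genes. The blue and red bars stand above both grey bars for ETS (39% and 44.4% beside 18.6% of tested genes) and YY1, and below or near them for CCAAT.

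Of the promoters printed here, only that of MRPS18A belongs to a gene that fell, and the others belong to genes that rose. MRPL24, MRPL34 and MRPL55, which also fell, held none of the 4 motifs. The printed sequences run from 5′ to 3′ on the strand of the gene, in lower case. Every match to any of the 4 motifs on either strand is in capitals. MRPS18A, the largest fall (chr6:43687742-43688041, minus strand), and MRPS10, which rose (chr6:42217812-42218111, minus strand), both held an ETS core followed by a YY1 motif, and MRPS18A also a CCAAT box on the opposite strand.
MRPS18A: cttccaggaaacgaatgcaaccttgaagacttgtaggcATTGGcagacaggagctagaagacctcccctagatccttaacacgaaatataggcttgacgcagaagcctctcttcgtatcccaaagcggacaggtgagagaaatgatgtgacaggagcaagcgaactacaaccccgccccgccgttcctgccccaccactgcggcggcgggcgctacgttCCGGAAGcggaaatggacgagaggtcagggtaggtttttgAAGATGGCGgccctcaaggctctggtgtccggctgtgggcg
MRPS10: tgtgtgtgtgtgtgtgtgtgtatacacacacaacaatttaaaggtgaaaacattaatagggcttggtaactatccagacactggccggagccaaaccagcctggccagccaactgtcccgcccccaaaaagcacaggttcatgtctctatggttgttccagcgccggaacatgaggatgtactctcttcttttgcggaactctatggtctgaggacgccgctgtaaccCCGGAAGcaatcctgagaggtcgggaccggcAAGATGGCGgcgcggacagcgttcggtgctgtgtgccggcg

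MRPS34 (chr16:1773085-1773384, minus strand) and MRPL36 (chr5:1799788-1800087, minus strand) both rose, and the first held ETS cores only and the second a YY1 motif only, each on the opposite strand to the gene.
MRPS34: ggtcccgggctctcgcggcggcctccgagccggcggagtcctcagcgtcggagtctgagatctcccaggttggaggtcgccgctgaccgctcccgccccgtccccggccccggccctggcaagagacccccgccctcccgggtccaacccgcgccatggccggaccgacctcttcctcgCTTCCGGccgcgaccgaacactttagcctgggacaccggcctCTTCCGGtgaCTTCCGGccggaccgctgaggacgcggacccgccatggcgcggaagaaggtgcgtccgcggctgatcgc
MRPL36: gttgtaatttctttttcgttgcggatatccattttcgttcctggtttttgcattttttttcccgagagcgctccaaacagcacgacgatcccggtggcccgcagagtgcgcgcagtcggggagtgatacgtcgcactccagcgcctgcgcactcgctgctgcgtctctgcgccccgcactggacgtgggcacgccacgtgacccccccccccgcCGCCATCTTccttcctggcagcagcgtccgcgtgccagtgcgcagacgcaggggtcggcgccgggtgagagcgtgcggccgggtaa

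MRPL22 (chr5:154940823-154941122, plus strand) held an NRF1 core and a YY1 motif, and MRPS6, the largest rise (chr21:34073328-34073627, plus strand), held none of the motifs.
MRPL22: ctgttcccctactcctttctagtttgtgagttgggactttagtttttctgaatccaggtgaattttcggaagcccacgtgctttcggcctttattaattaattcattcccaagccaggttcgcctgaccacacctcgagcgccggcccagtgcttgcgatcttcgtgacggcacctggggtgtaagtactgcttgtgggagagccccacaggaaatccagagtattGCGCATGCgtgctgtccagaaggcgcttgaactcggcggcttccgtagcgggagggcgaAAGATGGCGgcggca
MRPS6: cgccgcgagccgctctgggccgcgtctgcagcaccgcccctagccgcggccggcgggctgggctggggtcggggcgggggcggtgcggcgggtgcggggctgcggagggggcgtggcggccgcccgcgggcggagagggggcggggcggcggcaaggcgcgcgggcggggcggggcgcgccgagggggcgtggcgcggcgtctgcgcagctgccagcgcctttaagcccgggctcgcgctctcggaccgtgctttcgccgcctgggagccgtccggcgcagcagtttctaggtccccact

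Many of these genes start close to a gene on the other strand. A tested neighbour began within 1000 bases, head to head, for 28 of the 78 genes, and in 25 the neighbour was protein coding. Across these 25 pairs, in which the pair of MRPL46 and MRPS11 was counted from each side, the log2 fold changes of member and neighbour had Pearson's r = -0.11 and Spearman's rho = -0.13, given as a description because pairs share libraries. The signs were the same in 9 pairs, many of the others holding a gene that was not called. Both genes were called in 5 pairs, in 3 of them in the same direction. SARS2, the mitochondrial seryl-tRNA synthetase that starts 181 bases from MRPS12, was at 42.6, 40.6 and 39.5 CPM in siCtrl and at 21.0, 22.5 and 20.2 CPM in siDDX17 (log2 fold change -0.95, SE 0.0684, adjusted p = 1.68e-07), while MRPS12 was not called. GGA3 fell (log2 fold change -0.53, adjusted p = 8.05e-05) beside MRPS7, which rose (log2 fold change 0.19, adjusted p = 0.0358) but was not called without siCtrl 1 (0.10). EME1 fell (log2 fold change -0.61, adjusted p = 9.3e-05) 45 bases from the start of MRPL27, which also fell (log2 fold change -0.32, adjusted p = 0.000519). These pairs were chosen after their values were seen.

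Counting could split reads for some members. Exons of 17 of the 78 genes overlap those of another tested gene in GENCODE 44, 10 on the same strand and 7 on the other strand. Only the canonical transcript of each gene was compared, so further overlaps are possible. Neither the assignment of shared bases nor the use of strand is given in the sources used here. Use of strand could separate reads only for the 7 on the other strand. Values of all 17 genes are uncertain to that extent. Of the 37 called genes 11 are among them, MRPS6, MRPS18A, MRPS17 and MRPL30 included.

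Other proteins of the mitochondrial ribosome, listed here with the insertase OXA1L, carry symbols of another kind. Among these 7 genes, 1 was called higher (14.3%, beside 24.5% of all tested genes) and 3 lower (42.9%, beside 24.3%). The counts were the same without siCtrl 1, beside 26.4% higher and 27% lower of all genes tested in that fit. With library size alone, 4 were called higher (57.1%, beside 33.5% of all tested genes) and 1 lower (14.3%, beside 16%). ICT1 (MRPL58), a release factor built into the large subunit, was at 63.2, 70.7 and 67.3 CPM in siCtrl and at 82.1, 83.4 and 81.2 CPM in siDDX17 (log2 fold change 0.30, SE 0.058, adjusted p = 0.000896). AURKAIP1 (mS38) and CHCHD1 (mS37), proteins of the small subunit, fell by 0.34 (adjusted p = 0.00113) and 0.30 (adjusted p = 0.00766) on the log2 scale, and OXA1L, the insertase that receives the new peptides at the inner membrane, fell by 0.21 (adjusted p = 0.00487). DAP3, PTCD3 and GADD45GIP1 were not called. With library size alone these were called higher (log2 fold changes 0.15, 0.20 and 0.29), and CHCHD1 (-0.17) and OXA1L (-0.09) were not called.

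Of 15 genes for mitochondrial translation factors and mRNA-binding proteins, 4 rose (26.7%, beside 24.5% of all tested genes) and 3 fell (20%, beside 24.3%). Without siCtrl 1 the counts were 5 (33.3%) and 3 (20%), beside 26.4% and 27% of all genes tested in that fit. With library size alone they were 5 (33.3%, beside 33.5% of all tested genes) and 1 (6.67%, beside 16%). LRPPRC, which binds and stabilises mitochondrial mRNAs, was at 181, 164 and 163 CPM in siCtrl and at 249, 222 and 232 CPM in siDDX17 (log2 fold change 0.47, SE 0.0634, adjusted p = 4.58e-05). TUFM, the elongation factor that delivers aminoacyl-tRNA, rose by 0.32 on the log2 scale (SE 0.0585, adjusted p = 0.000594), and TSFM, which recycles TUFM, fell by 0.30 (SE 0.0679, adjusted p = 0.00258). This pair of partners moved in opposite directions. C12orf65, a member of the release factor family, was at 23.6, 18.4 and 15.6 CPM in siCtrl and at 16.5, 13.9 and 12.6 CPM in siDDX17, with groups that overlapped (log2 fold change -0.42, SE 0.136, adjusted p = 0.0202), and it was not called with library size alone (-0.30).

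With all 6 libraries and TMM scaling, 6 of 25 assembly factors and enzymes that modify the rRNA were called higher and 6 lower. These shares (24% each) lay near those of all tested genes (24.5% and 24.3%). Without siCtrl 1 the counts were 8 (32%) and 7 (28%), beside 26.4% and 27% of all genes tested in that fit. With library size alone they were 12 (48%, beside 33.5% of all tested genes) and 3 (12%, beside 16%). RPUSD4, a pseudouridine synthase, was at 24.5, 25.7 and 23.8 CPM in siCtrl and at 39.7, 39.0 and 37.1 CPM in siDDX17 (log2 fold change 0.65, SE 0.065, adjusted p = 3.3e-06), and NSUN4, an rRNA methyltransferase, rose by 0.41 on the log2 scale (adjusted p = 0.00142). DHX30, an RNA helicase needed for assembly, was at 86.9, 94.8 and 102 CPM in siCtrl and at 62.2, 66.7 and 61.0 CPM in siDDX17 (log2 fold change -0.58, SE 0.0667, adjusted p = 1.13e-05). MPV17L2, a membrane protein involved in assembly of the ribosome, fell by 0.71 on the log2 scale (SE 0.0914, adjusted p = 2.95e-05). For RPUSD4, DHX30 and MPV17L2 the groups did not overlap.

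Most of the RNAs that this ribosome contains or translates were called lower. Of 15 mitochondrially encoded RNAs, 14 were called lower (93.3%, beside 24.3% of all tested genes) and none higher. Without siCtrl 1 all 15 were called lower (100%, beside 27% of all genes tested in that fit). With all 6 libraries, their median log2 fold change was -0.54 compared with -0.03 for the 78 nuclear genes. This difference between the lists was not tested. Polyadenylated mitochondrial transcripts took 12.9% to 14.1% of the counts in siCtrl and 10.2% to 10.8% in siDDX17. MT-ATP8 and MT-ATP6, parts of the ATP synthase, fell by 0.60 (adjusted p = 2.19e-06) and 0.65 (adjusted p = 2.61e-06) on the log2 scale. MT-RNR1, the rRNA of the small subunit, was at 2583, 3465 and 2894 CPM in siCtrl and at 2398, 2235 and 2184 CPM in siDDX17 (log2 fold change -0.39, SE 0.0902, adjusted p = 0.00279). MT-RNR2, the rRNA of the large subunit, had a log2 fold change of -0.25 (SE 0.109, adjusted p = 0.0701) and was at 18745 CPM in siCtrl 1 beside 26889 and 23370 CPM in the other controls. Without siCtrl 1 its log2 fold change was -0.39. Selection for polyadenylated RNA makes rRNA levels uncertain, and the part of these abundant transcripts in the difference between the scalings was not tested.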

How the data were processed

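Polyadenylated RNA of 3 siCtrl and 3 siDDX17 libraries was sequenced with a stranded kit. Per the paper's methods and the labels, the authors aligned trimmed reads with TopHat2 to the GRCh38 genome, allowing unique hits only. They deposited raw counts of reads per gene and FPKM values, which they had scaled for gene length and library size. The counting program, the annotation release, the gene lengths and the use of strand are not given in the sources used here.

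Differential expression was tested on these counts in edgeR 4.0.16 (R 4.3.3): filterByExpr on the 2 groups kept 15615 genes, scaling was by TMM, and p-values of the quasi-likelihood test (glmQLFit, glmQLFTest) were adjusted by Benjamini-Hochberg across all genes kept. The call rule was an adjusted p under 0.05. The SE was taken as the absolute log2 fold change over the root of F, and 95% intervals as 1.96 SE. These intervals are approximate and somewhat narrower than the test, as that of MRPS18C left out 0 at an unadjusted p of 0.0509. FPKM served for levels between genes and, as log2(FPKM + 1) and log2(FPKM + 0.1), for limma 3.58.1 as alternatives. Further alternatives were DESeq2 1.42.0, upper-quartile and RLE scaling, library size only, other filters on low counts, the replicate number as a block, each library left out, the fold limit of 1.5 with an adjusted p under 0.05 or, from the methods of the study, a p under 0.01, and subunits assigned by structure. Where 1 library was left out, all genes were refitted with the 5 others. The 15 alternatives counted in the text are the alternative fits, without the fold limits and the assignment by structure.

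The members and gene lists were chosen with earlier results of these data known, so no list is independent support. Named genes were those called with the 5 largest changes each way per subunit, the 3 highest and 3 lowest mean FPKM per subunit, all past 1.5-fold, and genes of the stalk, tunnel exit, decoding site and S18 family whatever their values, with the 2 of lowest p each way from each further list. Others named are pointed out or belong to a stated count. Coordinates of genes came from GENCODE 44 (78 of 78 matched) and promoter windows from RefSeq (68 matched).

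The test was checked on simulated counts with known changes. Of 50 genes changed at each fold, 10 were called at 1.25-fold, 32 at 1.5-fold, 42 at 2-fold and 48 at 4-fold. Of the unchanged genes 11 were called, among 15407 genes run. Far fewer genes changed there than were called in these data, so these shares need not hold here. Replicates of a group are described as biological in the methods of the study, and no pair of libraries agreed within sampling noise.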

Additional observations from a re-analysis of the deposited data

How the results depend on the processing

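Upper-quartile and RLE scaling, DESeq2, both other filters on low counts and assignment of subunits by structure left every count of called genes per subunit within 1.5 times the values above. Library size only gave 19 of 48 large subunit genes higher and 8 lower (median log2 fold change 0.10), and 13 of 30 small subunit genes higher and 2 lower (median 0.08). Limma on log2(FPKM + 1) and on log2(FPKM + 0.1) gave the same 4 counts, with medians of 0.11 and 0.09. Of all tested genes, 33.5% were higher and 16% lower with library size only. With limma these shares were 33.3% to 33.4% and 15.2%. With a fold change over 1.5 and either an adjusted p under 0.05 or a p under 0.01, 0 large subunit genes were higher and 0 lower. In the small subunit 1 gene was higher and 2 were lower. Of all tested genes 11.9% were higher and 8.55% lower with the fold limit and the adjusted p. Without each library in turn, large subunit genes called higher ranged from 7 to 8 and called lower from 10 to 22 (median -0.09 to 0.00), and small subunit genes called higher from 5 to 8 and called lower from 4 to 14 (median -0.11 to -0.03). Over all genes tested in these fits, 20.1% to 26.4% were higher and 19.6% to 27% lower. The highest counts lower, 22 and 14, came without siCtrl 1, where 27% of all genes tested were lower. The count of 5 higher came without siDDX17 3, where 20.1% of all genes tested were higher. DDX17 itself ranged from -2.66 to -2.30 in log2 fold change over all alternatives. The cause of these shifts was not tested.

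The replicate numbers were not shown to pair the libraries: deviations from the group means of libraries with the same number correlated at 0.007, 0.041 and -0.056 across genes. With the replicate block, 8 large subunit genes were called higher and 14 lower, and 8 small subunit genes higher and 5 lower. Of all tested genes 24% were then higher and 23.9% lower. Over the 39 named genes and 15 alternatives, 513 results stayed on the same side of the threshold, 52 lost the call, 20 gained one and 0 were called in the opposite direction. With 3 libraries a group and a median SE of 0.0663 on the log2 scale, small changes could be missed, and a gene that was not called is not shown to be unaffected.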
